A study of Mus musculus with 6 samples.

Results

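The 10 genes described here encode 9 enzymes of glucose breakdown (Hk2, Pfkl, Aldoa, Tpi1, Gapdh, Pgk1, Eno1, Pkm and Ldha) and the glucose transporter Slc2a1. They were taken by symbol from read counts of 23420 gene symbols. All 10 had a row in the files, and 9 passed the filter on low counts, as did 8141 genes in all. Eno1 did not pass.

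RNA was measured in 6 libraries of dendritic cells (DCs) that had been sorted from the thymus of wild-type mice, in 3 groups of 2. YG+ pDCs were plasmacytoid DCs (low CD11c, B220+) carrying yellow-green microspheres, from mice with tumours of the MC38 colon carcinoma line at 2 weeks. In those mice the microspheres had been injected into the tumour after 12 days of growth, and the cells were taken 2 days later. PBS pDCs (same gate) and PBS Sirpa+ DCs (high CD11c, Sirpa+, a conventional DC subset) came from mice given PBS, labelled 2 weeks. The tumour, the injected microspheres and the selection of YG+ cells cannot be told apart in the comparison of YG+ with PBS pDCs. Whether replicate libraries are separate animals is not stated in the labels, and the p-values may therefore reflect technical spread alone.

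Glycolysis turns glucose into pyruvate in the cytosol. Hexokinase traps glucose in the cell as a phosphate, phosphofructokinase commits it to the pathway, and lactate dehydrogenase turns pyruvate into lactate and restores the cofactor that Gapdh uses. DCs are known to raise glycolysis when they are activated, and hypoxia-inducible factors (HIFs), which bind DNA at a core of ACGTG or GCGTG, are known to drive many of these genes. Plasmacytoid DCs are known for making type I interferon, and Sirpa+ DCs for presenting antigen to T cells.

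The libraries were shallow in genes. Gene totals ran from 177844 to 713966 counts, and the 10 genes made up 0.0995% to 0.171% of them. The lowest total was that of PBS pDC replicate 1. Both YG+ pDC libraries (713966 and 565406 counts) were deeper than both PBS pDC libraries (177844 and 413846). Depth therefore cannot be told apart from group in that comparison. Levels below are in CPM, counts scaled to a common library size with TMM factors. A count of 0 allows a level of up to 4.21 CPM in the deepest library and 19.1 CPM in the shallowest (the value of 3 counts, counting error only). The pDC markers (6 of 6 in the files) summed to 3031 to 4522 CPM in the 4 pDC libraries and to 609 and 682 CPM in Sirpa+ DCs, and the Sirpa+ DC markers (6 of 6) summed to 549 to 833 CPM in pDCs and to 1286 and 1772 CPM in Sirpa+ DCs. B cell markers (4 of 4) summed to 424 to 593 CPM in the pDC libraries, where each was detected, and to 16.9 and 17.9 CPM in Sirpa+ DCs, where Ms4a1 was at 0.

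The stretch of 250 bases before the RefSeq start was read for each gene and searched on both strands for ACGTG and GCGTG. The windows of 3 members are shown because they carry the motif while their genes differed in the tests below: Hk2 was called in 2 comparisons, and Ldha and Pgk1 in none. None of these 3 windows overlaps an annotated exon. Capitals mark the motif or its reverse complement.
Hk2: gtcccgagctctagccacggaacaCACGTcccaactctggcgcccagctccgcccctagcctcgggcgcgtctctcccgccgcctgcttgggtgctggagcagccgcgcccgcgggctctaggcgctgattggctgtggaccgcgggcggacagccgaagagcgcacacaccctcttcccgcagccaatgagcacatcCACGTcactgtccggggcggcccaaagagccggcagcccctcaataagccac
Ldha: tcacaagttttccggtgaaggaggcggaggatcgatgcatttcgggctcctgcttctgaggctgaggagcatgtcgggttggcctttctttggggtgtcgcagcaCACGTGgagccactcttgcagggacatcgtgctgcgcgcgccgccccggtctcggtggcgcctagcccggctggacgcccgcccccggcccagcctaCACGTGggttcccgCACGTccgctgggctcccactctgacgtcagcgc
Pgk1: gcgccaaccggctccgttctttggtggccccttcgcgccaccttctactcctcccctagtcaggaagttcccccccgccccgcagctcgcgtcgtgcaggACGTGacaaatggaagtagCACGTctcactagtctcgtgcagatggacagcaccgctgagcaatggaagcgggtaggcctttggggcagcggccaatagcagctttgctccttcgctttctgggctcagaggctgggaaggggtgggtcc

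The Hk2 window (chr6:82774455-82774704, minus strand, RefSeq on GRCm38.p6) held 2 matches of ACGTG. The Ldha window (chr7:46845554-46845803, plus strand, the first of 2 in RefSeq) held 5, of which 4 come from 2 copies of the palindrome CACGTG, which matches on both strands. The Pgk1 window (chrX:106186850-106187099, plus strand) held 2. Over all members, 13 of 16 windows (81.2%) held either motif, in 9 of 10 genes, and Tpi1 was the gene without one. The 16 windows are not all separate, as 2 of Aldoa overlap and share their match and 2 of Eno1 overlap and share theirs. Of all 32851 RefSeq windows of this length, 38.6% held either motif, 16.6% ACGTG and 28.2% GCGTG. These were not matched to the member windows (50.4% to 71.2% GC) for base composition, so the shares are no measure of enrichment. A match is a run of letters and no measure of binding.

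Counting reads of these genes depends on how much of each transcript is their own. All 5464 stretches of 50 bases in the Hk2 transcript (chr6:82725025-82774454, minus strand, GENCODE M21) were found in no other annotated transcript, and the same held for Slc2a1 (chr4:119108711-119137983). For Pfkl (chr10:77986947-78010083) the share was 99.9%, for Tpi1 (chr6:124810586-124814296) 92.5%, for Aldoa (chr7:126795234-126809108) 86.1% and for Ldha (chr7:46841475-46855627) 82.9%. Pkm (chr9:59656368-59679375) had 69.5%, Pgk1 (chrX:106187100-106203699) 32.0% and Eno1 (chr4:150236721-150248879) 27.8%. Gapdh (chr6:125161715-125166467) had the lowest share, 17.5%, with stretches shared by 222 other genes, of which 213 are annotated as pseudogenes. Between 25.4% and 45.6% of aligned records had been set aside as not unique. The share was 26.8% and 25.4% in YG+ pDCs, 36.0% and 45.6% in PBS pDCs and 36.5% and 27.0% in Sirpa+ DCs. The levels of Gapdh, Pgk1 and Eno1 are therefore uncertain. More records still, 19058505 to 22777061 per library, were assigned to no gene, so the levels of the other members are uncertain too. Tpi1, at 92.5% unique, had 3 to 32 counts. Gapdhs, an isozyme of Gapdh with 100% unique stretches, had means of 14.5, 37.1 and 40.7 CPM in YG+ pDCs, PBS pDCs and Sirpa+ DCs. Gapdh had 19.9, 15.9 and 23.9 CPM. Of the Gapdhs exon bases, 10.1% lie opposite exons of other genes. With no strand setting known for the counts, reads cannot be told apart there.

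**Figure D1:**
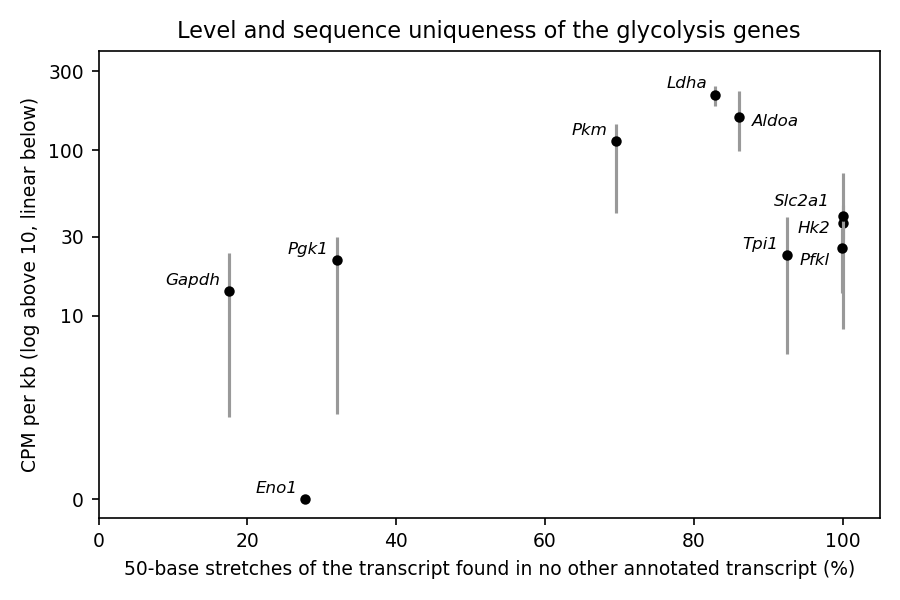
Share of 50-base stretches of each transcript that no other annotated transcript holds (x axis, percent) against the level of the gene (y axis, CPM per kb, log scale above 10 and linear below). Points are means over the 6 libraries and bars the range; Gapdh, Eno1 and Pgk1 lie at 17.5%, 27.8% and 32.0%, and the other 7 genes at 69.5% or more.

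Levels per kb of transcript allow for length but not for how much of a transcript is its own. The order below may therefore partly reflect which reads could be counted. Per kb, Ldha was first in every group. In YG+ pDCs the mean was 189 ± 4.995 CPM per kb (SD, n = 2), in PBS pDCs 239 ± 9.67 and in Sirpa+ DCs 224 ± 21.8. In Sirpa+ DCs Aldoa followed at 218 ± 15.9 CPM per kb, which overlapped Ldha, then Pkm at 140 ± 5.89, Hk2 at 73.2 ± 0.352 and Slc2a1 at 40.9 ± 0.954. Each of these last 3 lay apart from the gene above it in both libraries. Pfkl (29.0 ± 7.06 CPM per kb) came next, and Gapdh (16.8 ± 9.91), Pgk1 (16.5 ± 16.8) and Tpi1 (13.3 ± 7.57) overlapped one another.

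The order in pDCs differed mainly in the place of Hk2, which was eighth of the 10 genes in both pDC groups. In YG+ pDCs Ldha was followed by Pkm (121 ± 32.9 CPM per kb) and Aldoa (117 ± 24.98), which overlapped, and then by Slc2a1 (40.9 ± 4.24). Pfkl (28.9 ± 7.005), Tpi1 (27.3 ± 0.882), Pgk1 (24.8 ± 7.36) and Hk2 (24.3 ± 7.77) overlapped, and Gapdh (14.0 ± 10.9) overlapped Hk2. In PBS pDCs Aldoa (140 ± 16.5 CPM per kb) was second, and Pkm (79.97 ± 53.8) came after it without overlap. Slc2a1 (38.0 ± 12.6), Tpi1 (29.2 ± 14.8), Pgk1 (23.8 ± 3.9999), Pfkl (18.9 ± 7.43), Hk2 (11.6 ± 3.25) and Gapdh (11.2 ± 9.50) each overlapped its neighbour in that order.

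**Figure D2:**
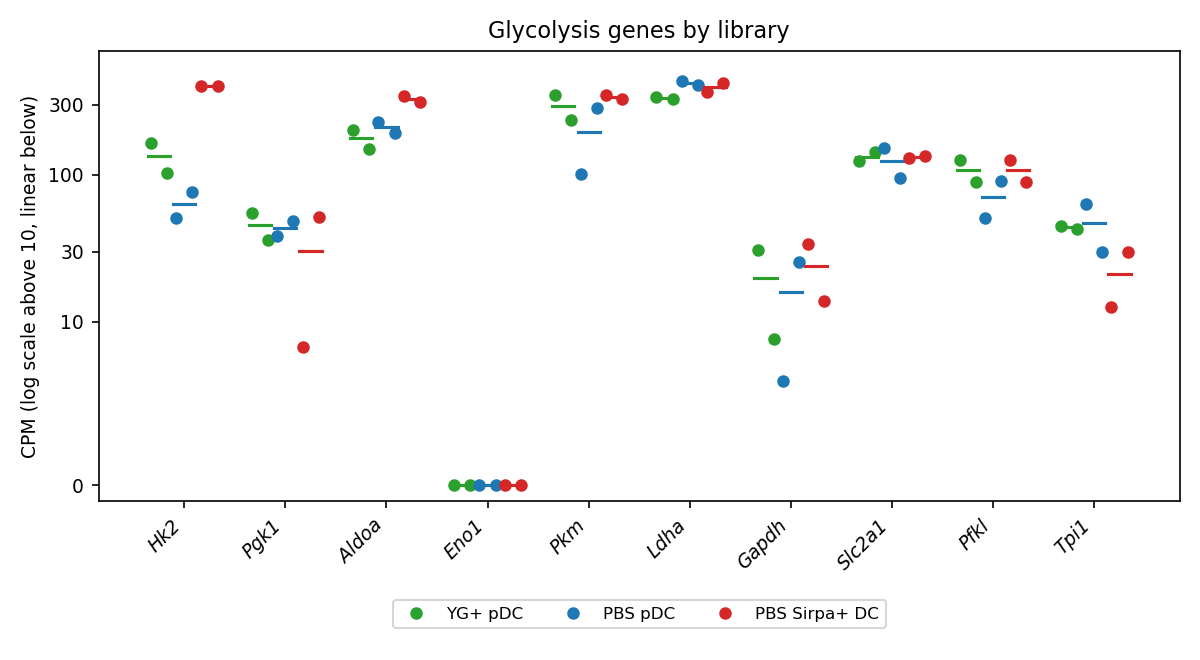
Level of the 10 genes in each library (y axis, CPM, log scale above 10 and linear below), with the mean of each group of 2 as a line. Hk2 lies at 402 and 405 CPM in Sirpa+ DCs and between 51.0 and 164 CPM in the 4 pDC libraries, while Ldha lies between 327 and 434 CPM throughout and Eno1 is at 0.

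PBS pDCs against PBS Sirpa+ DCs compares the pDC and conventional subsets of mice given PBS. Of the 9 genes tested, Hk2 was lower in pDCs and 8 did not pass the test (edgeR quasi-likelihood, Benjamini-Hochberg adjusted p under 0.05). That is 11.1% of the genes tested, beside a background of 11.4% of all genes (931 of 8141; 4.54% higher and 6.89% lower), so the share of members called was near the background. Their log2 fold changes ran from -2.61 to 0.90 with a median of -0.23, and the median over all genes was 0.08.

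Hk2, which traps glucose as glucose 6-phosphate and can dock on mitochondria, was the member that changed. Its level was 51.0 and 76.4 CPM in PBS pDCs (8 and 33 counts) and 402 and 405 CPM in Sirpa+ DCs (95 and 203 counts). Both Sirpa+ DC libraries were far above both PBS pDC libraries. The means were 63.7 ± 17.9 and 403 ± 1.94 CPM (SD, n = 2), 6.33-fold apart, with a log2 fold change of -2.61 (SE 0.46, edgeR adjusted p = 0.00547). Without PBS pDC replicate 1, the shallowest library, the log2 fold change was -2.39 (edgeR adjusted p = 0.00261), and without Sirpa+ DC replicate 2 the call was lost (-2.57, edgeR adjusted p = 0.0508). In bulk samples fewer cells with a transcript and less of it per cell cannot be told apart.

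Marker lists of other cell types and states also differed between these groups. The macrophage and monocyte markers (7 of 8 in the files) summed to 925 and 620 CPM in PBS pDCs, where Fcgr1 was at 0 in both libraries and C1qb in replicate 2, and to 5822 and 9779 CPM in Sirpa+ DCs. The mature DC markers (6 of 6) summed to 702 and 553 CPM in PBS pDCs, with Ccl17 and Anxa3 at 0 in both, and to 6169 and 4956 CPM in Sirpa+ DCs. The T cell and thymocyte markers (5 of 5) went the other way, at 338 and 271 CPM in PBS pDCs and 38.1 and 25.9 CPM in Sirpa+ DCs. Cd3e was at 0 in these 4 libraries, and Cd3d in PBS pDC replicate 1 and Sirpa+ DC replicate 2. Whether these sums reflect other cells in the sorts, and what part they have in the level of Hk2, was not tested.

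Slc2a1, the transporter that brings glucose into many cell types, was 153 and 94.9 CPM in PBS pDCs and 131 and 136 CPM in Sirpa+ DCs. The Sirpa+ DC values fell between the PBS pDC values, and the log2 fold change was -0.15, with a 95% interval of -1.09 to 0.79. Pfkl, the liver-type phosphofructokinase, was 51.0 and 90.2 CPM in PBS pDCs and 127 and 89.7 CPM in Sirpa+ DCs. These groups overlapped, with a log2 fold change of -0.52 (interval -1.56 to 0.51).

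Aldoa, the aldolase that splits the 6-carbon sugar, was 230 and 194 CPM in PBS pDCs and 347 and 313 CPM in Sirpa+ DCs. The groups did not overlap, but the difference did not pass the test (log2 fold change -0.64, SE 0.41, edgeR adjusted p = 0.384). Tpi1, which interconverts the triose phosphates, was 63.8 and 30.1 CPM in PBS pDCs and 12.7 and 29.9 CPM in Sirpa+ DCs. Those Sirpa+ DC values rest on 3 and 15 counts, and the log2 fold change was 0.90 (interval -0.52 to 2.33).

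Gapdh, which oxidises glyceraldehyde phosphate, had 1 and 11 counts in PBS pDCs and 8 and 7 in Sirpa+ DCs, or 6.38 and 25.5 against 33.9 and 14.0 CPM. Pgk1, which makes the first ATP of the pathway's later steps, was 38.3 and 48.6 CPM in PBS pDCs and 8.46 and 51.8 CPM in Sirpa+ DCs. Both genes overlapped between the groups, and the intervals of their log2 fold changes ran from -2.22 to 1.76 and from -1.12 to 1.92. Eno1, the main enolase, had 0 counts in all 6 libraries, and its muscle and neuronal relatives are given with the isozymes below.

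Pkm, pyruvate kinase of most tissues, was 102 and 287 CPM in PBS pDCs and 351 and 331 CPM in Sirpa+ DCs. The groups did not overlap, but the 2 PBS pDC libraries stood further apart than the group means did. The log2 fold change was -0.76 (SE 0.50, edgeR adjusted p = 0.414). Without PBS pDC replicate 2 it was -1.79 and passed (edgeR adjusted p = 0.0313). Ldha, which makes lactate, was 434 and 410 CPM in PBS pDCs and 368 and 423 CPM in Sirpa+ DCs. Its groups overlapped, with a log2 fold change of 0.09 (interval -0.77 to 0.95).

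**Figure D3:**
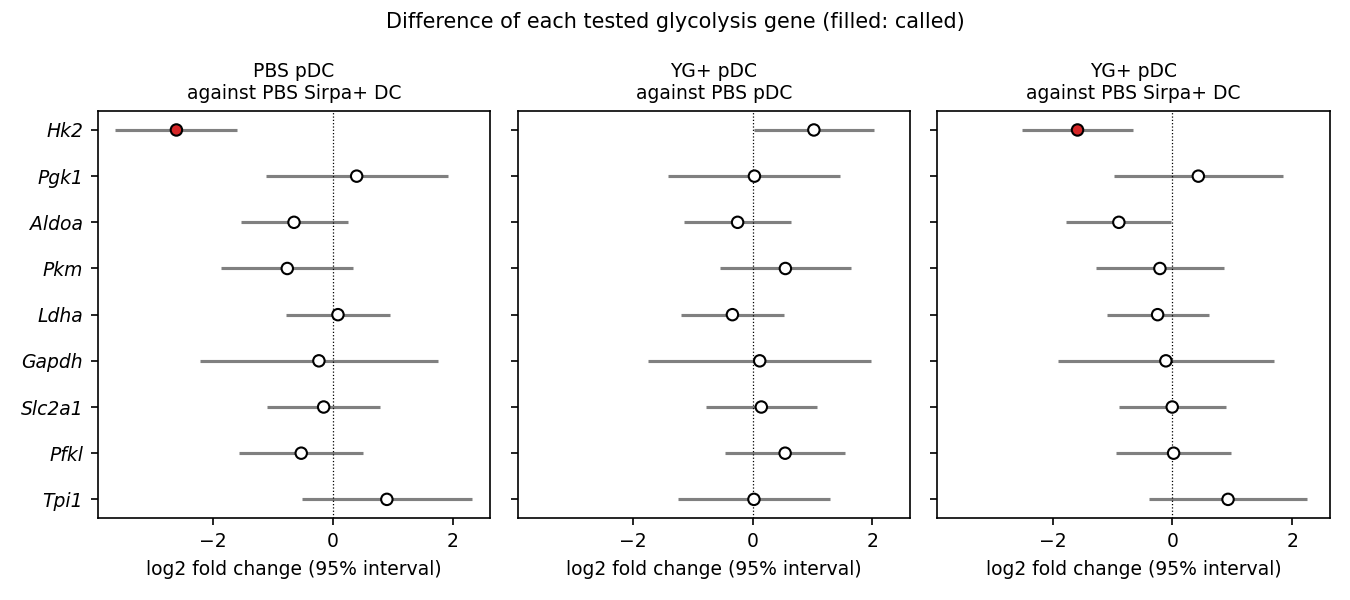
Log2 fold change of the 9 tested genes (x axis) in the 3 comparisons, with bars for the 95% interval of the edgeR fit; filled points passed the adjusted threshold of 0.05. Only the Hk2 differences against Sirpa+ DCs, at -2.61 and -1.58, are filled. Of the open points, only Hk2 in YG+ against PBS pDCs and Aldoa in YG+ pDCs against Sirpa+ DCs have intervals that stay off 0. The intervals are not adjusted for the number of genes tested.

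YG+ pDCs against PBS pDCs compares pDCs that carried microspheres from the tumour with pDCs of PBS mice. None of the 9 genes passed the test, and neither did any of the 8141 genes (background 0%, smallest edgeR adjusted p = 0.235). At an unadjusted p under 0.05 there were 929 genes (11.4%), 1 of them a member, and DESeq2 called 45 genes in all and 0 members. The median log2 fold change of the members was 0.12, beside 0.08 over all genes.

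Hk2 was that member. Its level was 164 and 104 CPM in YG+ pDCs (117 and 58 counts), beside 51.0 and 76.4 CPM in PBS pDCs. Both YG+ libraries were above both PBS libraries, with means of 134 ± 42.8 and 63.7 ± 17.9 CPM (SD, n = 2), a 2.10-fold ratio. The log2 fold change of 1.02 (SE 0.46) had an unadjusted edgeR p of 0.0457 and did not pass (adjusted p = 0.429). Its interval ran from 0.02 to 2.02. The macrophage markers summed to 4088 and 1653 CPM in YG+ pDCs, where Fcgr1 was at 0 in replicate 2, and the mature DC markers to 1813 and 1378 CPM with none at 0. The T cell and thymocyte markers summed to 189.6 and 274 CPM, with Cd3e at 0 in replicate 1. The macrophage and mature DC ranges lay between those of PBS pDCs and Sirpa+ DCs, as Hk2 did. The pDC list (3031 and 4234 CPM in YG+ pDCs) and the B cell list (447 and 424 CPM) also lay between, nearer to PBS pDCs. The Sirpa+ DC list (809 and 793 CPM) lay inside the PBS pDC range, and the T cell and thymocyte list overlapped it. The part of any list in the level of Hk2 was not tested.

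The other members showed smaller differences. Slc2a1 was 124 and 143 CPM in YG+ pDCs, inside the range of the PBS pDC libraries, with a log2 fold change of 0.15 (95% interval -0.78 to 1.07). Pfkl was 126 and 89.5 CPM (log2 fold change 0.54, interval -0.46 to 1.55). Aldoa was 204 and 150 CPM (-0.25, interval -1.14 to 0.64).

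These 3 genes overlapped between the pDC groups. Pkm was 351 and 238 CPM in YG+ pDCs, and also overlapped (0.55, interval -0.55 to 1.64). Ldha was 340 and 327 CPM, below both PBS pDC libraries, and the log2 fold change of -0.34 did not pass (interval -1.19 to 0.52). Tpi1, at 44.9 and 42.9 CPM, and Pgk1, at 54.8 and 35.8 CPM, had log2 fold changes of 0.02 and 0.03, whose sign turned under other settings, and Gapdh, at 30.9 and 8.95 CPM, had 0.12, whose sign turned with limma-voom and with a replicate block. The interval of each of the 9 members reached past a 2-fold change in at least 1 direction, so the test does not show that the groups were alike.

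YG+ pDCs against Sirpa+ DCs uses the same Sirpa+ DC libraries as the first comparison, so the 2 are not independent. Hk2 was again the member called, at 1 of 9 (11.1%), beside 7.16% of all genes (583 of 8141; 3.07% higher and 4.09% lower). It was 3.01-fold lower in YG+ pDCs, with a log2 fold change of -1.58 (SE 0.42, edgeR adjusted p = 0.0449), and its groups did not overlap. The call was lost when libraries were scaled by their total alone (-1.49, edgeR adjusted p = 0.0627). It was also lost without YG+ pDC replicate 1 (edgeR adjusted p = 0.219), YG+ pDC replicate 2 (0.588), Sirpa+ DC replicate 1 (0.200) or Sirpa+ DC replicate 2 (0.174), each of which leaves that group with 1 library.

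Aldoa was next in this comparison, with no overlap and means of 177 ± 37.7 and 330 ± 24.0 CPM. Its log2 fold change of -0.89 (SE 0.40) had an unadjusted edgeR p of 0.0459 and did not pass (adjusted p = 0.211). In this comparison 1857 of 8141 genes (22.8%) had an unadjusted edgeR p under 0.05, 2 of them members (Hk2 and Aldoa). Tpi1 (0.93, interval -0.38 to 2.24) and Ldha (-0.25, interval -1.10 to 0.61) did not overlap between the groups either and did not pass. Slc2a1 and Pfkl had log2 fold changes of -0.003 and 0.02 (intervals -0.90 to 0.89 and -0.94 to 0.98), with signs that turned under other settings.

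Isozymes place the members in their families. Hk2 made up 60.8% and 62.6% of the CPM per kb of Hk1, Hk2 and Hk3 in YG+ pDCs, 73.6% and 45.2% in PBS pDCs, and 78.1% and 73.4% in Sirpa+ DCs. As shares of raw counts, these were 70.1% (95% Wilson interval 62.7% to 76.5%) and 70.7% (60.1% to 79.5%) in YG+ pDCs, 80% (49.0% to 94.3%, of 10 counts) and 54.1% (41.7% to 66.0%) in PBS pDCs, and 84.8% (77.03% to 90.3%) and 80.9% (75.6% to 85.3%) in Sirpa+ DCs. The PBS pDC intervals overlapped each other and those of YG+ pDCs. Per kb, Hk2 held the largest share in 5 of the 6 libraries and Hk1 in PBS pDC replicate 2 (54.8%), while in raw counts Hk2 was the largest in all 6.

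Hk3, a hexokinase of myeloid cells, had 0 counts in both PBS pDC libraries and was 33.9 and 33.9 CPM in Sirpa+ DCs (8 and 17 counts). That is at least 6.65-fold lower in PBS pDCs, taking 3 counts over the group as the floor, and the difference did not pass (edgeR adjusted p = 0.0501). It passed with upper-quartile factors, library size alone, no filter, the 10 CPM filter, DESeq2 and a fit of the 4 libraries compared, so the call depends on the setting. In YG+ pDCs Hk3 was 19.7 and 1.79 CPM. Hk1, the hexokinase found in most tissues, ran from 12.8 to 64.8 CPM and overlapped between PBS pDCs and Sirpa+ DCs (38.8 ± 36.8 and 49.9 ± 16.8 CPM).

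For phosphofructokinase, Pfkp, the platelet-type gene, and not the member Pfkl, had the largest share in all 6 libraries, from 53.1% to 74.7% of CPM per kb. Pfkl had 40.0% and 32.4% in YG+ pDCs, 17.3% and 26.6% in PBS pDCs and 20.5% and 18.8% in Sirpa+ DCs. Pfkp was 198 and 241 CPM in PBS pDCs and 457 and 397 CPM in Sirpa+ DCs, with no overlap, and did not pass (log2 fold change -0.95, edgeR adjusted p = 0.172). Ldha made up 80.7% to 97.5% of the CPM per kb of Ldha and Ldhb, and Aldoa 98.7% or more of Aldoa and Aldoc. Among enolases, Eno3, the muscle form, reached 42.3 and 43.9 CPM in Sirpa+ DCs and 0 to 19.7 CPM in pDCs, while Eno2, the neuronal form, reached 21.2 and 29.9 CPM in Sirpa+ DCs and 0 to 12.5 CPM in pDCs. Slc2a1 had 30.6% to 52.2% of the CPM per kb of Slc2a1, Slc2a3, Slc2a6 and Slc2a8, and Slc2a6 had the larger share in 4 of the 6 libraries. In raw counts Slc2a1 was above Slc2a6 in all 6 libraries.

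**Figure D4:**
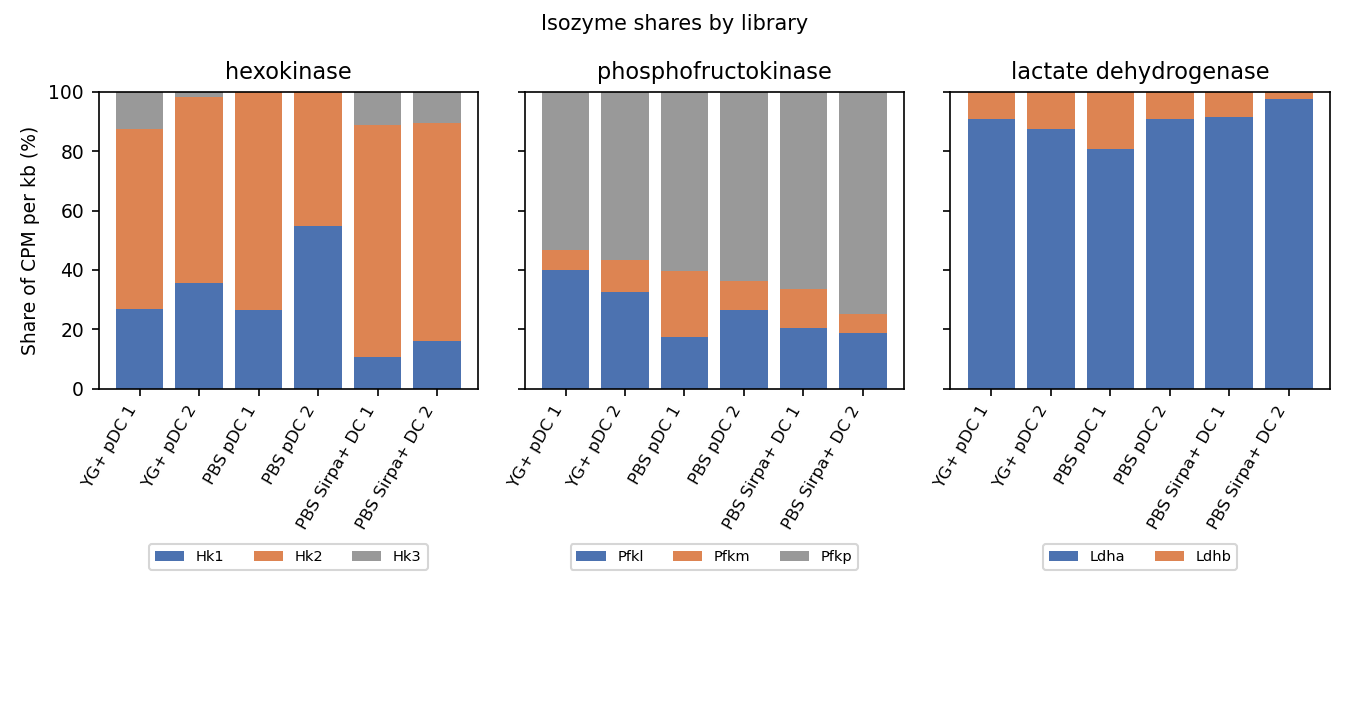
Share of each isozyme in the CPM per kb of its family (y axis, percent) in each of the 6 libraries, for hexokinases, phosphofructokinases and lactate dehydrogenases. Hk2 spans 45.2% to 78.1%, Pfkp is the largest phosphofructokinase in every library, and Ldha spans 80.7% to 97.5%.

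The pathway around the members was followed in 6 lists of 84 genes (other glycolytic enzymes, fructose bisphosphate control, glucose and lactate transport, pyruvate entry, pentose phosphate pathway, and hypoxia targets and regulators), of which 82 were in the files and 49 were tested. In PBS pDCs against Sirpa+ DCs, 4 were lower and 2 higher, 12.2% in all, near the background of 11.4% given above. The 7 tested genes of pyruvate entry and the 7 of the pentose phosphate pathway gave no call in any comparison. Without Sirpa+ DC replicate 1, and likewise without Sirpa+ DC replicate 2, 1 neighbour gene passed, which was Pfkfb3.

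Pfkfb3, which makes fructose 2,6-bisphosphate, the activator of phosphofructokinase, was 70.2 and 60.2 CPM in PBS pDCs and 487 and 534 CPM in Sirpa+ DCs. The groups stood far apart, 7.83-fold, with a log2 fold change of -2.99 (SE 0.46, edgeR adjusted p = 0.00257). Slc16a3, a lactate exporter, was 6.38 and 9.26 CPM in PBS pDCs, from 1 and 4 counts, and 76.2 and 57.8 CPM in Sirpa+ DCs (log2 fold change -2.94, SE 0.66, edgeR adjusted p = 0.0168). Vegfa, an angiogenic factor induced by hypoxia, was 0 and 41.7 CPM in PBS pDCs and 309 and 305 CPM in Sirpa+ DCs (log2 fold change -3.50, SE 0.68, edgeR adjusted p = 0.00864). Without PBS pDC replicate 2, which leaves that group with the library at 0, the fitted log2 fold change of Vegfa was -10.065, which is no bound, and without PBS pDC replicate 1 it was -2.86. The Vegfa call was lost without Sirpa+ DC replicate 1 (edgeR adjusted p = 0.0511) or 2 (0.0642). These 3 genes and Hk2 were grouped because each was called lower in PBS pDCs, so their shared direction is no separate result.

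Vhl, which marks HIF alpha subunits for breakdown, was 38.3 and 30.1 CPM in PBS pDCs and 165 and 97.7 CPM in Sirpa+ DCs (log2 fold change -1.95, edgeR adjusted p = 0.0304), and DESeq2 did not call it (adjusted p = 0.0534). Adpgk, an ADP-dependent glucokinase, went the other way, at 102 and 167 CPM in PBS pDCs and 21.2 and 35.9 CPM in Sirpa+ DCs (log2 fold change 2.20, edgeR adjusted p = 0.0172). Txnip, which lowers glucose uptake, was also higher in PBS pDCs, at 172 and 227 against 33.9 and 59.8 CPM (log2 fold change 2.05, edgeR adjusted p = 0.0170). Of the Txnip exon bases, 19.4% lie opposite Gm15441, and no strand setting is known for the counts, so reads of the 2 cannot be told apart there.

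In YG+ pDCs against PBS pDCs, 0 of the 49 neighbour genes passed in edgeR, DESeq2 and limma-voom. Pfkfb3 was 214 and 147 CPM in YG+ pDCs, above both PBS pDC libraries, with a log2 fold change of 1.49 (SE 0.45, edgeR adjusted p = 0.315). Slc16a3 was 30.9 and 41.2 CPM, also above both (2.06, SE 0.67, edgeR adjusted p = 0.315). P4ha1, a collagen prolyl hydroxylase induced by hypoxia, was 78.7 and 68.0 CPM, against 31.9 and 30.1 CPM (1.25, SE 0.49, edgeR adjusted p = 0.373), and was picked out after its values were seen. The median log2 fold change of the tested neighbour genes was 0.14, beside 0.08 over all genes. Without PBS pDC replicate 2, which leaves 1 library in that group, these medians were 0.55 and 0.28.

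Against Sirpa+ DCs, YG+ pDCs had 6 of 49 neighbour genes called (12.2%, beside 7.16% of all genes), 4 lower and 2 higher. Pfkfb3 (log2 fold change -1.50, edgeR adjusted p = 0.0483), Vhl (-2.38, 0.0134), Vegfa (-2.998, 0.0149) and Ndrg1, a stress and hypoxia-induced gene (-1.83, 0.0358), were lower. The Pfkfb3 call was lost with upper-quartile factors (edgeR adjusted p = 0.0535), library size alone (0.0666), no filter (0.0663) and the 10 CPM filter (0.0542). Adpgk (2.27, edgeR adjusted p = 0.0183) and Txnip (2.64, 0.00730) were higher. Slc16a3 was not called here. The count fell to 2 without YG+ pDC replicate 1, to 1 without YG+ pDC replicate 2, to 0 without Sirpa+ DC replicate 1 and to 1 without Sirpa+ DC replicate 2.

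**Figure D5:**
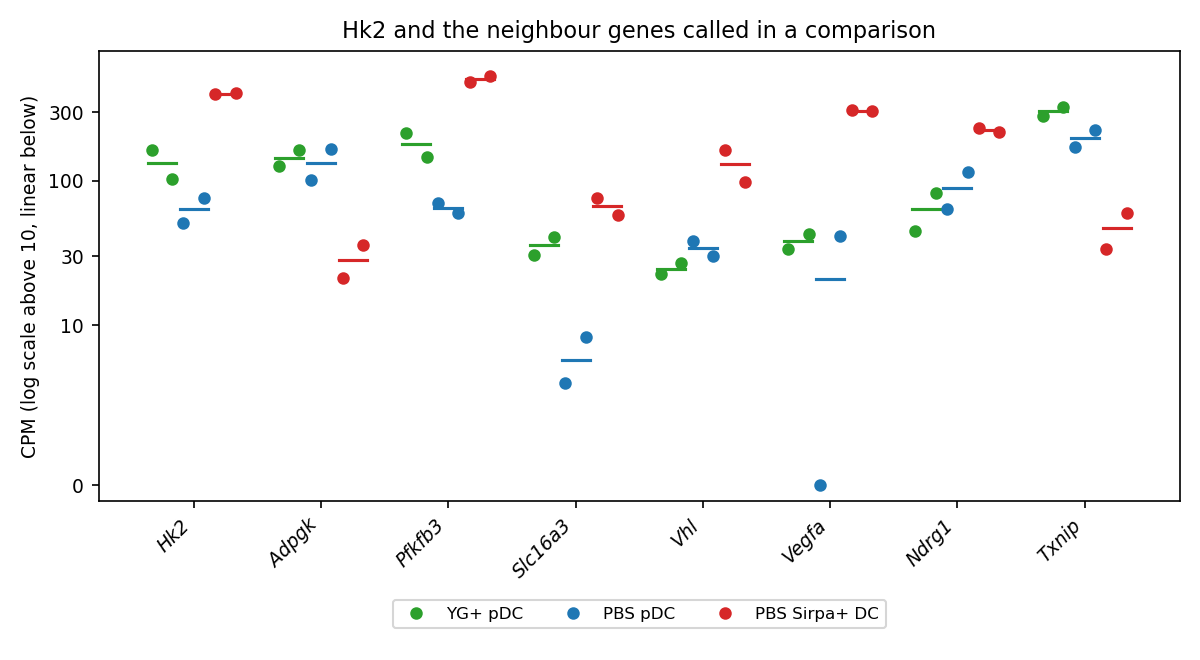
Level of Hk2 and of the 7 neighbour genes called in a comparison, in each library (y axis, CPM, log scale above 10 and linear below), with the mean of each group of 2 as a line. Hk2, Pfkfb3 and Slc16a3 are lowest in PBS pDCs and highest in Sirpa+ DCs with YG+ pDCs between, and Adpgk and Txnip are lowest in Sirpa+ DCs.

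The genes whose pattern over the 6 libraries was most like that of Hk2 were ranked by the Euclidean distance between centred log2 CPM values (prior count 2), among 8052 genes that reached 20 CPM on average in their highest group. The nearest was Rab3il1, an exchange factor for Rab proteins, at a distance of 0.253 and with means of 41.0, 15.6 and 115 CPM in YG+ pDCs, PBS pDCs and Sirpa+ DCs. Isg15, an interferon-induced ubiquitin-like protein (0.305), Smox, a spermine oxidase (0.329), Eva1b (0.333) and Serpinb6b, a protease inhibitor (0.343), followed. Pfkfb3 was number 32 in that order, at 0.667. In PBS pDC replicate 1 the 5 nearest genes were at 0 to 12.8 CPM. These values lie below the 19.1 CPM floor of that library, so their nearness to Hk2 there rests on very few counts. The nearest other member was Pkm at 1.87, followed by Aldoa at 2.08, and the farthest was Tpi1 at 3.95, so none of the tested members lay as near to Hk2 as Pfkfb3.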

How the data were processed

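The authors deposited 1 file per sample with raw counts of reads for each gene symbol, in whole numbers. Libraries were made with the Ovation SoLo kit from 5 ng of RNA, per the labels' protocols, and the submitters' processing notes name bcl2fastq 2.17 and mm10. No aligner, counter, annotation or strand setting was named there. The 5 summary lines that name no gene (97.7% to 99.5% of records) were left out. The members and gene lists were chosen with earlier results of these data known.

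Counts were tested in edgeR 4.0.16 (R 4.3.3; filterByExpr, TMM, glmQLFit, glmQLFTest) with all 6 libraries in 1 fit of 3 group means, which leaves 3 residual degrees of freedom, and Benjamini-Hochberg adjustment over 8141 genes at 0.05. Alternatives were DESeq2 1.42.0, limma-voom (limma 3.58.1), other scalings and filters, a fit of 4 libraries, removal of Rn45s, Malat1, Tsix and Xist, a replicate block and each library left out. Replicates differed beyond counting noise (chi-square per degree of freedom 2.76 to 11.9), so none was treated as a duplicate. Named genes were all members, every neighbour gene called, the isozymes and the 5 genes nearest to Hk2. Some marker genes of the lists are not reported here and are not in the sums. Lengths, overlaps and 50-base uniqueness came from GENCODE M21 (GRCm38; APPRIS principal transcript), and promoters from RefSeq (GRCm38.p6). Python 3.11.15, numpy 2.4.6, pandas 2.3.3 and matplotlib 3.10.9 were used.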

Additional observations from a re-analysis of the deposited data

How the results depend on the processing

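Each library left out in turn gave 0 to 2 called members in PBS pDCs against Sirpa+ DCs (214 to 1297 of all genes, 1 to 8 neighbour genes), 0 in YG+ against PBS pDCs (0 to 870 of all genes, 0 to 3 neighbour genes) and 0 to 1 in YG+ pDCs against Sirpa+ DCs (69 to 1487 of all genes, 0 to 8 neighbour genes). With 1 library left in a group, its spread was taken from the other groups. A fit of the 4 libraries compared called 580 genes in the first comparison and 1480 in the third, and no filter called 894 in the third. In YG+ against PBS pDCs no filter called 141 genes and DESeq2 45, with 0 members in each. With library size alone, 0 members were called in YG+ pDCs against Sirpa+ DCs. Shares of raw counts moved Hk2 to 70.1% in YG+ pDC replicate 1 and to 84.8% and 80.9% in the Sirpa+ DC replicates. The cause of these shifts was not tested.

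Signs turned for members near 0. In YG+ against PBS pDCs, Pgk1 was -0.036 with DESeq2 size factors, -0.029 with DESeq2, -0.048 with limma-voom and -0.025 with 4 libraries. Gapdh was -0.066 with limma-voom and -0.16 with the replicate block. Tpi1 was -0.057 with DESeq2 size factors, -0.11 with DESeq2 and -0.046 with 4 libraries. Against Sirpa+ DCs, Slc2a1 in YG+ pDCs was 0.022 with upper-quartile factors, 0.082 with library size alone and 0.043 with no filter, and Pfkl was -0.063, -0.070 and -0.019 with DESeq2 size factors, DESeq2 and Rn45s, Malat1, Tsix and Xist removed. Leaving out libraries, log2 fold changes of the first comparison ran from -1.77 to 0.39 for Gapdh, -0.010 to 0.23 for Ldha, -0.23 to 2.39 for Pgk1 and -0.49 to 0.14 for Slc2a1. In YG+ against PBS pDCs they ran from -0.21 to 0.54 for Adpgk, -0.96 to 1.68 for Gapdh, -1.005 to 0.016 for Ndrg1, -0.29 to 0.34 for Pgk1, -0.16 to 0.48 for Slc2a1, -0.49 to 0.54 for Tpi1 and -0.14 to 7.05 for Vegfa. In YG+ pDCs against Sirpa+ DCs they ran from -1.34 to 0.51 for Gapdh, -0.28 to 0.24 for Pfkl, -0.21 to 2.39 for Pgk1, -0.54 to 0.037 for Pkm and -0.12 to 0.078 for Slc2a1.

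Correlations of deviations between libraries of the same number were -0.12 for YG+ and PBS pDCs and -0.10 for YG+ pDCs and Sirpa+ DCs. For PBS pDCs and Sirpa+ DCs the correlation was 0.30. Replicate 1 was the shallower library in both PBS groups, so pairing of these samples cannot be told apart from depth. The replicate block called 942, 0 and 635 genes in the 3 comparisons and changed no member call, while among neighbour genes of the first comparison Hk3 also passed. With the YG+ pDC numbers crossed, chosen after the data were seen, 1396, 294 and 1221 genes were called.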
